A study of Mus musculus with 33 samples.

Results

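The 10 genes described here, Pcp2, Pcp4, Calb1, Itpr1, Car8, Rora, Ppp1r17, Gng13, Slc1a6 and Homer3, are widely used markers of Purkinje cells. They were taken by name, and each was found once among the 38393 features of all 5 count tables of the study. The data are 33 stranded libraries of polyadenylated RNA, each from the cerebellum or cortex of a male mouse of the strain C57Bl/6J at an age of 1 month. The study asked how brain messenger RNAs differ when parts of a network of noncoding RNAs are removed, and it compared each mutant with wild-type (WT) libraries prepared for the same experiment. Experiment 1A held cerebella of 3 WT mice and of 4 mutants (CyrMut) whose long noncoding RNA Cyrano carries changes in its site for the microRNA miR-7. Experiment 1B held cerebella of 4 WT mice, of 4 mice lacking Cyrano (Cyrano-/-, CyrKO) and of 4 mice lacking 2 of the genes that make miR-7 (Mir7a1-/-; Mir7b-/-, Mir7DKO). Experiment 2 held 4 WT and 3 Mir7DKO libraries of cerebellum, and again 4 WT and 3 Mir7DKO libraries of cortex. All mutants are named for the whole animal, with no cell-specific promoter in the labels, and the libraries were made from whole frozen tissue.

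In the GENCODE M21 annotation of GRCm38 all 10 are protein-coding. Of the calcium genes, Calb1 lies at chr4:15881264-15908064, Itpr1 at chr6:108213096-108551109, Car8 at chr4:8143362-8239041, Homer3 at chr8:70282827-70294361 and Pcp4 at chr16:96467606-96525793. Pcp2 lies at chr8:3623371-3625545, Gng13 at chr17:25717171-25719406 and Slc1a6 at chr10:78780496-78814765. Rora spans chr9:68653786-69388246 and Ppp1r17 chr6:56017497-56032689.

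Purkinje cells are the large output neurons of the cerebellar cortex, and the cerebral cortex has none. Glutamate from parallel and climbing fibres acts in part on metabotropic receptors, which work through a G protein and phospholipase C to make inositol trisphosphate (IP3), and IP3 opens the calcium channel encoded by Itpr1 in the endoplasmic reticulum. Several of the 10 genes act in this path: Homer3 is a scaffold that ties metabotropic glutamate receptors to the IP3 receptor, Car8 encodes a carbonic anhydrase relative without the enzyme's activity that binds the IP3 receptor, and Calb1 encodes the calcium buffer calbindin. Pcp4 encodes a small regulator of calmodulin, Pcp2 a regulator of inhibitory G proteins, Gng13 a G protein gamma subunit, Slc1a6 the glutamate transporter EAAT4 and Ppp1r17 a substrate of cGMP-dependent protein kinase that inhibits protein phosphatases. Rora encodes a nuclear receptor that Purkinje cells need to mature, and its loss is the cause of the staggerer mouse. Outside Purkinje cells, calbindin and Rora are known from subsets of cortical and other neurons, Pcp4 from several forebrain neuron types, and Gng13 from sensory cells.

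MicroRNAs repress messenger RNAs mainly through matches of the 3′ UTR to the microRNA's seed, bases 2 to 8, so the sequences of miR-7 are shown with the seed in capitals, as RefSeq gives them for GRCm38.p6. Both forms share 1 seed.
miR-7a-5p: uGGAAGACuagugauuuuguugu
miR-7b-5p: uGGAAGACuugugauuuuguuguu

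A search of the longest annotated 3′ UTR of each gene (GENCODE M21, GRCm38) for the letters TCTTCCA or GTCTTCC found a match in 3 of the 10 genes. The share among 13201 genes tested in the Mir7DKO cerebella of experiment 2 was 29.1%. The 30 bases around each match follow, with the match in capitals, because the values of these 3 genes in the Mir7DKO cerebella are followed further on. The match of Car8 had 8 letters, and those of Pcp4 and Ppp1r17 had 7. Only Car8 matched the full seed, since TCTTCCA lacks the G that pairs with base 8 of miR-7. Positions are those of the start of TCTTCC, which in Car8 comes after the G of the match.
Car8, 3′ UTR position 1661 of 2890: ctaccgtgattGTCTTCCAgaatgatatct
Pcp4, 3′ UTR position 144 of 562: ttacaccgagtcTCTTCCAtgtatgcaatg
Ppp1r17, 3′ UTR position 249 of 1133: aagtgattttttTCTTCCAaagtaagagag

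Because the nuclear receptor made from Rora is itself among the 10 genes, promoters were searched on both strands for AGGTCA, the core of the sequence that receptors of its family bind, and for TAGGTCA, which contains it. RefSeq promoters of 300 bases, from 250 before to 50 after a transcript's start, were matched for 6 of the 10 genes (Pcp2, Pcp4, Rora, Gng13, Slc1a6 and Homer3), with 10 promoters in all. AGGTCA was present at 4 distinct sites, in promoters of 3 of the 6 genes (Pcp2, Pcp4 and Homer3), and TAGGTCA in none. Among 27025 genes with a promoter of this length, the shares with a match in any promoter were 18.13% and 2.97%. Counted by promoter, AGGTCA was present in 5 of 10, but 2 of the 4 promoters of Pcp2 overlap and hold the same site. Among all 32851 promoters the share was 16.26%. The first of the 4 promoters of Pcp2, of which 3 hold AGGTCA, and the promoter of Pcp4 are printed, with AGGTCA or its reverse complement in capitals, because these genes stood at the opposite ends of the comparison of cerebellum with cortex given further on. A match is a description of the letters and not evidence of binding.
Pcp2, GRCm38.p6, minus strand, chr8:3625498-3625797: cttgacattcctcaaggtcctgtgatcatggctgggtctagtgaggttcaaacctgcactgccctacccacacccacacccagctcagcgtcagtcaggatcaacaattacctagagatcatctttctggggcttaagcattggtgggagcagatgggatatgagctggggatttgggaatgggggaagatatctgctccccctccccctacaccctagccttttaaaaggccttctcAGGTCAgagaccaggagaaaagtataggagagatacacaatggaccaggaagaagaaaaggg
Pcp4, GRCm38.p6, plus strand, chr16:96467356-96467655: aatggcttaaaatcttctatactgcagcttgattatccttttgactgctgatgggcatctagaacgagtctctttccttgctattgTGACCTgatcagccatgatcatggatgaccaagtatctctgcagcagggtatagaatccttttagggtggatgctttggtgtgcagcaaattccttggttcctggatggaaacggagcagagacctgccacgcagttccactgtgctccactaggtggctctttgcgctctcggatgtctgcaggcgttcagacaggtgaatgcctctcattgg

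The 33 libraries held 6.89 to 24.94 M counts, with the deepest in experiment 1A and the shallowest in cortex. Levels are given as CPM (the count of a gene scaled to a common library total, with totals adjusted by TMM). Cyrano itself stood at 74.7 to 88.3 CPM in the 4 CyrKO libraries and at 1579 to 1970 CPM in their 4 WT libraries. The extent of any loss of miR-7 cannot be read in polyadenylated RNA. The tissue labels were borne out by marker genes. The summed level of 8 granule cell markers was 7241 to 7570 CPM in WT cerebellum and 104 to 135 CPM in WT cortex, and that of 8 cortical neuron markers 87.7 to 99.0 CPM and 875 to 1044 CPM.

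Levels of different genes were compared only per kilobase (kb) of merged exons, since a longer transcript yields more counts. In the 4 WT cerebella of experiment 2, Car8 was the highest of the 10 genes at 475 ± 16.7 CPM per kb (SD, n = 4). Itpr1 stood at 219 ± 2.99 CPM per kb (SD, n = 4), and Calb1 at 216 ± 6.91 CPM per kb (SD, n = 4). These calcium genes made up the top 3 of the 10, and Itpr1 and Calb1 differed from each other by less than the larger of their 2 SDs. Ppp1r17 followed at 149 ± 4.23, Gng13 at 139 ± 20.4 and Pcp2 at 136 ± 11.8 CPM per kb (SD, n = 4 each). Neighbours among these 3 likewise differed by less than the larger SD. Pcp4 stood at 119 ± 14.1 CPM per kb (SD, n = 4). Homer3 at 60.5 ± 1.99 and Slc1a6 at 57.8 ± 4.14 CPM per kb (SD, n = 4 each) could not be told apart on the same rule. Rora, the only transcription factor among the 10, was the lowest at 40.9 ± 1.41 CPM per kb (SD, n = 4). Merged exon length counts every annotated exon (18319 bases for Itpr1 and 773 for Gng13), so the level of a gene with many rarely used exons is understated.

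The order held only in part in the other WT cerebella. Each table was scaled on its own and the study compared only within experiments, so the following levels were not tested against each other. Pcp4 stood at 176 ± 7.69 CPM per kb in experiment 1A (SD, n = 3) and at 119 ± 7.41 CPM per kb in experiment 1B (SD, n = 4). Pcp2 stood at 189.9 ± 22.6 CPM per kb in experiment 1A (SD, n = 3) and at 151 ± 15.9 CPM per kb in experiment 1B (SD, n = 4). Gng13 stood at 168 ± 11.6 CPM per kb in experiment 1A (SD, n = 3) and at 124 ± 16.7 CPM per kb in experiment 1B (SD, n = 4). These 3 genes were thus highest in experiment 1A, whereas Calb1 stood at 215, 214 and 216 CPM per kb in experiments 1A, 1B and 2.

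**Figure D1:**
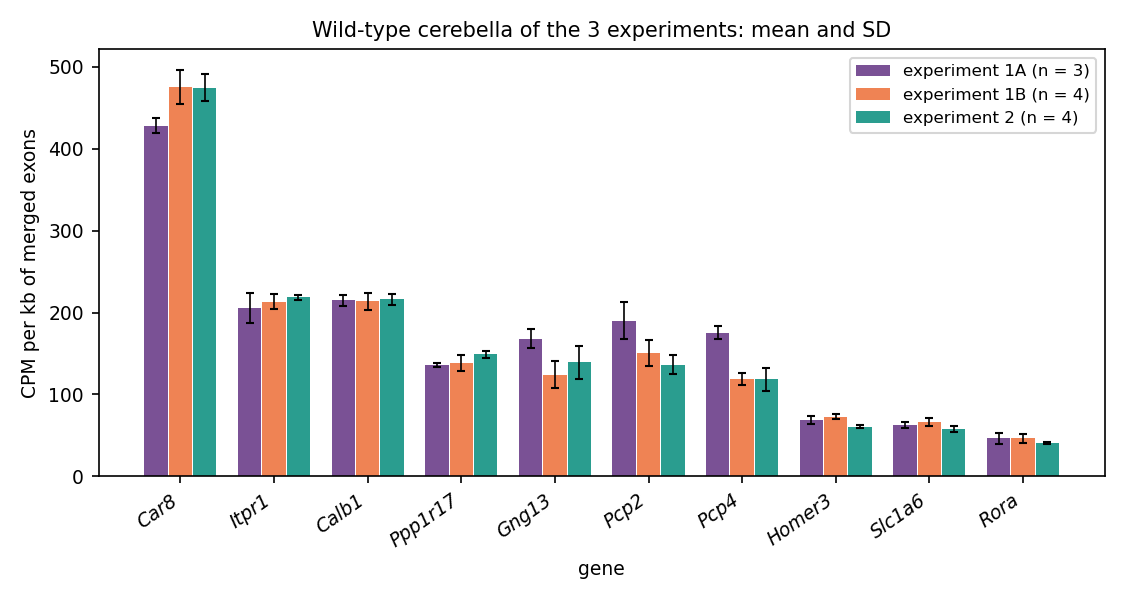
Mean level of each gene in the WT cerebella of experiments 1A (n = 3), 1B (n = 4) and 2 (n = 4), in CPM per kb of merged exons, with error bars of 1 SD. Car8 is highest in all 3 experiments, and Pcp2, Pcp4 and Gng13 are higher in experiment 1A than in the others.

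The comparison of WT cerebellum with WT cortex of experiment 2 shows how far each gene is confined to the cerebellum at the level of whole tissue. Of the 10 genes, 9 were higher in cerebellum and 1, Pcp4, did not pass the test (edgeR's quasi-likelihood F-test, Benjamini-Hochberg adjustment over 14001 genes, threshold 0.05). The tissues differ widely, so this count stands against a high background: 74.7% of all genes tested differed between them, 37.3% being higher in cerebellum. Pcp2 and Ppp1r17 passed the filter on low counts through cerebellum alone, so being higher there is largely fixed by how they entered. Their part in this count, and in the median that follows, is not read against the values over all genes. The median log2 ratio of cerebellum to cortex was 3.54 over the 10 genes and 0.01 over all genes tested. In whole tissue, fewer cells of a type and less RNA per cell cannot be told apart.

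Pcp2 had 272, 221, 239 and 243 CPM in the 4 cerebella, and in the 4 cortices 0, 0.563, 0 and 0.139 CPM. Cortex was thus close to no signal, with 5 counts in all 4 libraries together, and 2 of them held none, where 3 counts (0.40 to 0.43 CPM) is the level that a count of 0 allows. The ratio of the pooled levels was 1398, with a 95% interval of 599 to 4310 that covers counting error only. WT cortex replicate 2 held 4 of the 5 counts. Without that library cortex holds 1 count and the ratio was 5263 (95% counting interval 945 to 208000), and without any other cortex library it ran from 1033 to 1310. Ppp1r17, the phosphatase inhibitor, had 264, 247, 255 and 259.6 CPM in cerebellum, and in cortex 0.400, 0.563, 0.144 and 0.417 CPM. These cortex values rest on 11 counts, and the pooled ratio was 669 (95% counting interval 374 to 1340). Car8 had 1810.5, 1833, 1697 and 1822 CPM in cerebellum, and in cortex 12.8, 17.5, 14.3 and 14.3 CPM. Its cortical level was low but well counted, and its log2 ratio was 6.93 (SE 0.07, adjusted p = 8.73e-28), the smallest adjusted p of the 10 genes.

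The next genes kept a measurable cortical level. Homer3 had 194 to 209 CPM in cerebellum and 5.33 to 8.45 CPM in cortex, a log2 ratio of 4.99 (SE 0.08). Slc1a6, the glutamate transporter, had 114 to 134 CPM in cerebellum and 5.20 to 6.48 CPM in cortex, a log2 ratio of 4.33 (SE 0.09). The remaining genes differed less, at ratios that still stood far outside the spread between libraries. Calb1 had 978 to 1055 CPM in cerebellum and 146 to 162 CPM in cortex, a log2 ratio of 2.74 (SE 0.04). Gng13 had 83.8 to 117 CPM in cerebellum and 14.6 to 17.5 CPM in cortex, a log2 ratio of 2.71 (SE 0.10). Itpr1, which neurons of the forebrain also use, had 3843 to 3959.8 CPM in cerebellum and 747 to 787 CPM in cortex, a log2 ratio of 2.36 (SE 0.04). Rora had 497 to 537 CPM in cerebellum and 119 to 153 CPM in cortex, a log2 ratio of 1.87 (SE 0.06). In each of these genes, and in Car8, the lowest cerebellar library lay above the highest cortical one. This was so for 34.0% of all genes tested. The same held for Pcp2 and Ppp1r17, but it is largely fixed by their entry through cerebellum alone and is not set against that share.

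Pcp4 was the exception. It had 129, 132, 102 and 113 CPM in the 4 cerebella, and in the 4 cortices 85.0, 123, 103 and 121 CPM. The tissues overlapped, with the lowest library in cortex and the 2 highest in cerebellum. The log2 ratio was 0.14 (SE 0.09, 95% interval -0.04 to 0.32, adjusted p = 0.16), so a difference of more than 1.25-fold lay outside the interval. This call was not firm: the ratio passed the test at 0.21 without WT cerebellum replicate 3 (adjusted p = 0.0402), at 0.21 without WT cortex replicate 2 (adjusted p = 0.043) and at 0.19 with no filter on low counts (adjusted p = 0.00146). Over all settings it ran from 0.04 to 0.21, with adjusted p from 0.00146 to 0.656.

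**Figure D2:**
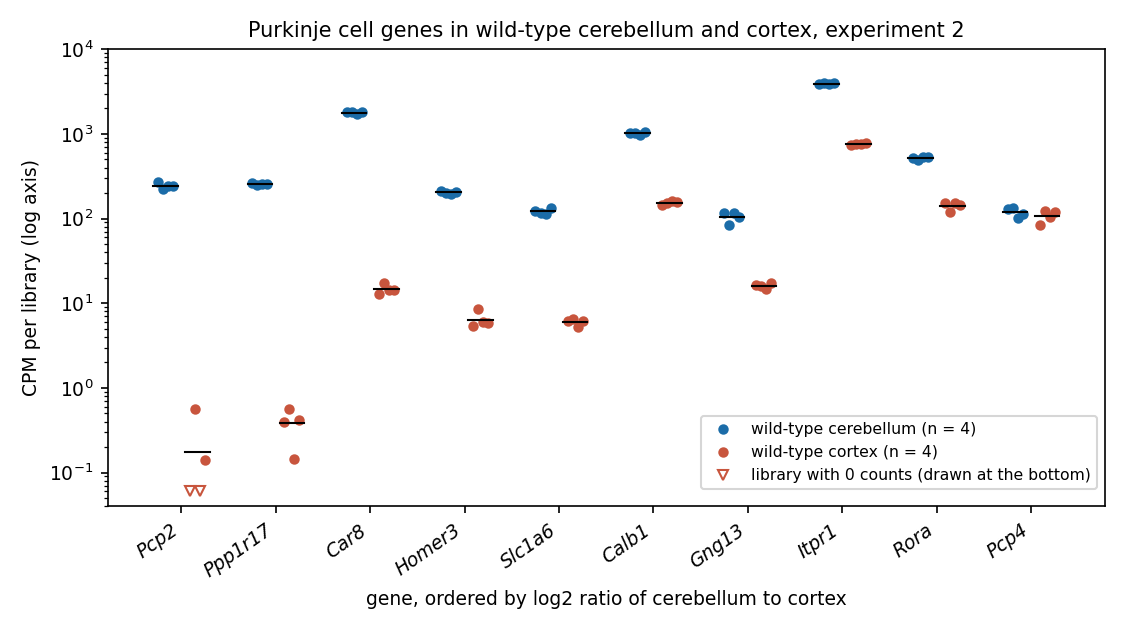
Level of each gene in the 4 WT cerebella and 4 WT cortices of experiment 2, in CPM on a log axis, with 1 point per library and a line at the group mean. Libraries with 0 counts are drawn as open triangles at the bottom. The tissues are far apart for Pcp2 and Ppp1r17 and overlap for Pcp4.

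None of the 10 genes passed the test in any of the 4 mutant comparisons of cerebellum, and none of the 8 that could be tested passed in cortex, where Pcp2 and Ppp1r17 fell under the filter on low counts. DESeq2 likewise called 0 of them in each comparison, and in the authors' deposited tables the smallest adjusted p-value of the 10 genes was 0.926, for Itpr1 in the Mir7DKO cerebella of experiment 2. The background was low too: by the same test the share of all genes tested that were called was 0.00673% for CyrMut and 0.022% for CyrKO. For Mir7DKO it was 0.00713% in experiment 1B, 0.198% in cerebellum of experiment 2 and 0.0436% in cortex. A count near such a background is not a result about the 10 genes, and the intervals say more. The 95% intervals of all 10 genes together ran from 0.798 to 1.24 times WT in CyrMut and from 0.751 to 1.23 times WT in CyrKO. For Mir7DKO they ran from 0.809 to 1.19 times WT in experiment 1B and from 0.853 to 1.16 times WT in experiment 2. In cortex the 8 genes ran from 0.709 to 1.41 times WT. These intervals are for each gene by itself and are not widened for the number of genes.

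**Figure D3:**
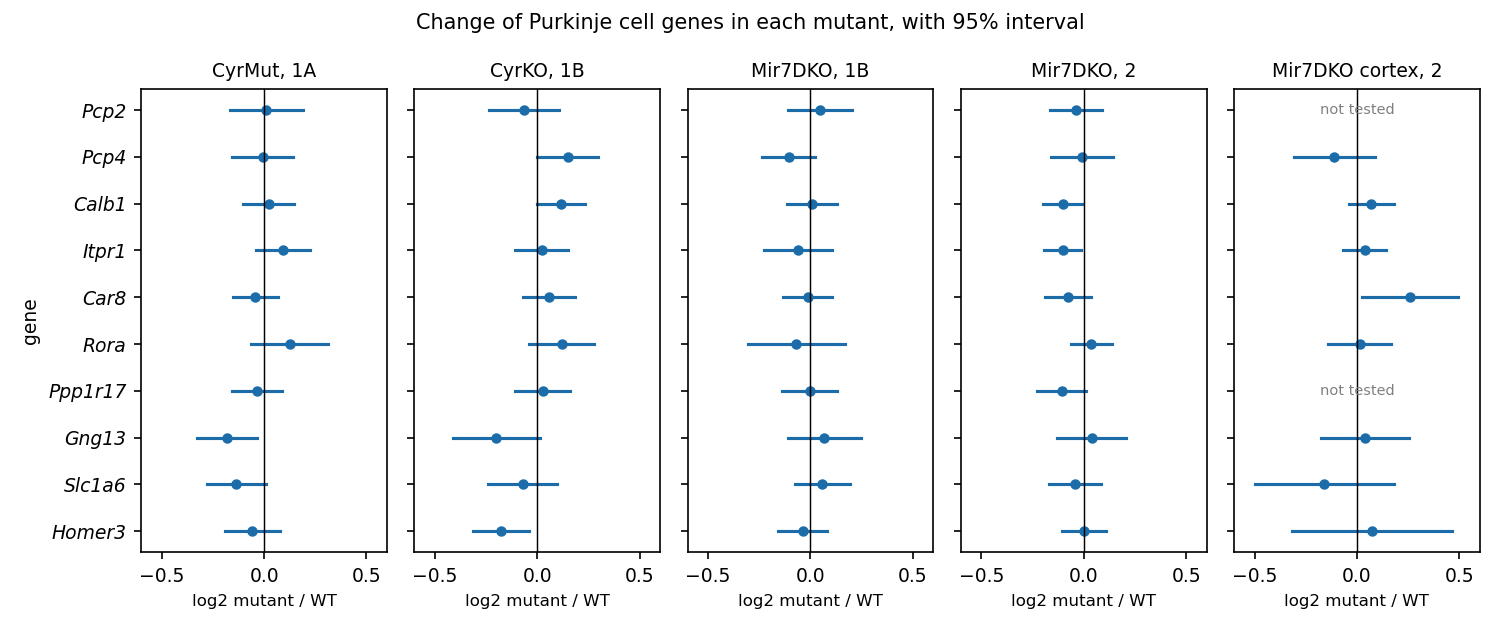
Log2 ratio of mutant to WT for each gene in the 5 mutant comparisons (points) with its 95% interval (lines), 3 or 4 libraries a group. The intervals that leave out 0 are those of Gng13 in CyrMut, Homer3 and Pcp4 in CyrKO, Itpr1 and Calb1 in Mir7DKO of experiment 2, and Car8 in cortex, and those of Slc1a6 and Homer3, which are low in cortex, are widest there.

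In CyrMut the median log2 change of the 10 genes was -0.02, and 4 were above 0 and 6 below. One gene, Gng13, had an unadjusted p under 0.05, as had 4.98% of all genes tested. This G protein subunit had 119.6, 135 and 135 CPM in the 3 WT libraries, and in the 4 CyrMut libraries 110.0, 107, 122 and 119 CPM. The groups overlapped through WT replicate 1, the lowest WT library. The change was -0.18 on the log2 scale (SE 0.07, adjusted p = 0.944). None of the 10 genes had groups that did not overlap, against 5.39% of all genes tested. Rora had the largest value above 0, at 0.13 (SE 0.09, adjusted p = 0.944): its WT libraries ran from 532 to 696 CPM and its CyrMut libraries from 622 to 712 CPM. Itpr1 ran from 3458 to 4108 CPM in WT and from 3883 to 4159 CPM in CyrMut.

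In CyrKO the median log2 change was 0.02, with 6 genes above 0 and 4 below, and 2 genes, Homer3 and Pcp4, had an unadjusted p under 0.05 (7.35% of all genes tested did). Homer3, the receptor scaffold, had 246, 238, 260 and 261 CPM in WT, and in CyrKO 225, 247, 209 and 208 CPM. A single CyrKO library, replicate 2, lay within the WT range. The log2 change was -0.18 (SE 0.06, adjusted p = 0.677). Pcp4, the calmodulin regulator, had 125, 113, 121 and 131 CPM in WT, and in CyrKO 119, 142, 139 and 143 CPM. Replicate 1 of CyrKO stood apart from the other 3, which were all above WT, and the log2 change was 0.15 (SE 0.07, adjusted p = 0.677).

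Calbindin was the 1 of 10 genes whose CyrKO and WT libraries did not overlap, as was so for 4.05% of all genes tested. Calb1 had 1086, 1053, 1033 and 968 CPM in WT, and in CyrKO 1095, 1090.2, 1144 and 1159.5 CPM. The gap between the highest WT and the lowest CyrKO library was smaller than the spread within either group. The log2 change was 0.12 (SE 0.06, adjusted p = 0.677). Gng13 had the change of largest size, -0.20 (SE 0.10, adjusted p = 0.691), over WT libraries of 85.3 to 114 CPM and CyrKO libraries of 75.1 to 98.1 CPM.

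In Mir7DKO of experiment 1B, which shares its 4 WT libraries with the CyrKO comparison, the median log2 change was -0.01, with 4 genes above 0 and 6 below. None of the 10 genes had an unadjusted p under 0.05, against 3.68% of all genes tested, and none had groups that did not overlap, against 2.54%. The smallest unadjusted p was that of Pcp4, 0.0933, for a log2 change of -0.11 (SE 0.06). Since the WT libraries are shared, the values of this comparison and of CyrKO are not independent: Homer3 changed by -0.04 on the log2 scale here and by -0.18 there, and Gng13 by 0.07 here and by -0.20 there, with no change past the test in either.

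In Mir7DKO cerebellum of experiment 2 the median log2 change was -0.04, with 3 genes above 0 and 7 below, and 2 genes, Itpr1 and Calb1, had an unadjusted p under 0.05, as had 6.78% of all genes tested. The IP3 receptor gene Itpr1 had 4021, 4049.9, 3927 and 4032 CPM in WT, and in Mir7DKO 3664, 3959.6 and 3577 CPM. Replicate 2 of Mir7DKO lay within the WT range and the other Mir7DKO libraries below it. The log2 change was -0.10 (SE 0.04, adjusted p = 0.652). Calb1 had 1058, 1059.7, 999 and 1075 CPM in WT, and in Mir7DKO 914, 1012 and 1007 CPM. Its groups overlapped through WT replicate 3, and the log2 change was -0.10 (SE 0.05, adjusted p = 0.732). None of the 10 genes had groups that did not overlap, against 6.70% of all genes tested.

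The 3 genes with a miR-7 match printed above can be followed in both Mir7DKO cerebella. Mir7-2, which also yields miR-7a-5p, is not among the genes named as lost in this mutant. The level of miR-7 that remains was not measured here. Car8, with the match of 8 letters, had 1852, 1883, 1888 and 1726 CPM in WT of experiment 1B, and in Mir7DKO 1833, 1730.2, 1904 and 1811 CPM. In experiment 2 it had 1851, 1875, 1734 and 1857 CPM in WT, and in Mir7DKO 1547, 1857 and 1805 CPM. Both pairs of groups overlapped, and a single library, Mir7DKO replicate 1 of experiment 2, lay below all others. The log2 change was -0.01 (95% interval -0.13 to 0.10) in experiment 1B and -0.07 (95% interval -0.19 to 0.04) in experiment 2.

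Ppp1r17 had 238, 247, 266 and 226 CPM in WT of experiment 1B, and in Mir7DKO 234, 239, 264 and 237 CPM. In experiment 2 it had 269.7, 252, 260.2 and 265 CPM in WT, and in Mir7DKO 217, 249 and 262 CPM. Mir7DKO replicate 1 was again the lowest of experiment 2. The log2 change was -0.00 (95% interval -0.14 to 0.13) in experiment 1B and -0.11 (95% interval -0.23 to 0.01) in experiment 2. Pcp4 had 113, 110.2, 113 and 118 CPM in the Mir7DKO libraries of experiment 1B, against 113 to 131 CPM in WT. In experiment 2 it had 125, 120.2 and 118 CPM in Mir7DKO, against 104 to 135 CPM in WT. Its log2 change was -0.11 (95% interval -0.23 to 0.02) in experiment 1B and -0.01 (95% interval -0.16 to 0.14) in experiment 2. For each of these 3 genes the interval took in 0 in both experiments, and the upper ends of the intervals were at or under 0.14. All 6 estimates were below 0 with every library in, but 4 of the 6 turned above 0 when 1 library was left out. These were Ppp1r17 (up to 0.04) and Car8 (0.01) in experiment 1B, and Pcp4 (up to 0.05) and Car8 (0.002, without Mir7DKO replicate 1) in experiment 2.

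In Mir7DKO cortex, 1 of the 8 genes tested, Car8, had an unadjusted p under 0.05, as had 5.77% of all genes tested. Car8 had 12.5, 17.1, 13.98 and 14.05 CPM in WT cortex, and in Mir7DKO cortex 17.7, 15.9 and 18.2 CPM. The groups overlapped through WT replicate 2. This was a log2 change of 0.26 (SE 0.11, adjusted p = 0.849). None of the 8 genes had groups that did not overlap, against 6.99% of all genes tested. Pcp2 had 0 counts in each Mir7DKO cortex, so no fold is given for it.

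Whether the genes responded differently in the tissues or in the experiments was tested as a difference of changes. Of the 8 genes that passed the filter on low counts in cortex itself, 0 differed in their Mir7DKO changes between cerebellum and cortex (0.155% of all genes tested did), and 2 had an unadjusted p under 0.05, against 4.92% of all genes tested. Car8 had the smallest p: its change in cerebellum minus that in cortex was -0.33 (SE 0.12, adjusted p = 0.931). Calb1 followed at -0.17 (adjusted p = 0.987). Pcp2 and Ppp1r17 entered this fit only through cerebellum, where they are high, and their differences are not read here. Between the Mir7DKO cerebella of experiments 2 and 1B, 0 of 10 genes differed, 0 had an unadjusted p under 0.05 (3.83% of all genes tested), and 0.0% of all genes tested were called. The largest of these differences was 0.11 for Rora (95% interval -0.17 to 0.39).

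A list of 15 other genes of metabotropic glutamate and IP3 signalling was read the same way. None of the 15 passed the test in any of the 5 mutant comparisons, and their median log2 change ran from -0.06 in Mir7DKO cerebellum of experiment 2 to 0.015 in CyrMut. Homer1, which encodes another scaffold of the Homer family, had a log2 change of 0.21 in Mir7DKO cerebellum of experiment 2 (SE 0.09, adjusted p = 0.628) and of 0.28 in Mir7DKO cortex (SE 0.11, adjusted p = 0.849). In Mir7DKO cerebellum of experiment 1B its value had the opposite sign, at -0.29 (SE 0.22, adjusted p = 1.0), from 82.0 CPM in WT to 66.9 CPM in Mir7DKO. Itpka, which encodes a kinase that phosphorylates IP3, had -0.21 in Mir7DKO cortex (SE 0.06, adjusted p = 0.606), with groups that did not overlap.

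Between WT tissues, 11 of these 15 genes were higher in cerebellum and 4 lower, with a median log2 ratio of 1.32. Of all genes tested, 37.3% were higher in cerebellum and 74.7% differed in either direction. Plcb4, a phospholipase C of this path, had a log2 ratio of 2.51 (SE 0.05), from 105 CPM in cortex to 600.1 CPM in cerebellum. Inpp5a, a phosphatase that removes IP3, had 2.95 (SE 0.05). Itpka went the other way at -1.91 (SE 0.06), with 28.1 CPM in cerebellum and 105 CPM in cortex.

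A second list of 15 other genes known from Purkinje cells also had 0 members past the test in each mutant, of 15 tested in cerebellum and 12 in cortex. Foxp2, a transcription factor of Purkinje and other neurons, had 0.24 in CyrKO (SE 0.10, adjusted p = 0.677) and 0.31 in Mir7DKO of experiment 1B (SE 0.12, adjusted p = 1.0), in comparisons that share their WT libraries. Lhx5, a transcription factor of the Purkinje lineage, had -0.28 in CyrKO (SE 0.12, adjusted p = 0.677). Between WT tissues, 11 of the 15 were higher in cerebellum and 3 lower, against the same shares of all genes tested (37.3% higher, 74.7% in either direction). As 12 of the 15 passed the filter on low counts in the cortex comparison, this count takes in genes that entered through cerebellum alone. Lhx1 is such a gene, with a mean of 74.0 CPM in cerebellum and 0.139 CPM in cortex. The cortex value, a mean over 4 libraries, is close to no signal. For a single library, a count of 0 allows 0.40 to 0.43 CPM. Rgs8, a regulator of G protein signalling, had a log2 ratio of 3.65 (SE 0.07), Pvalb, which encodes the calcium buffer parvalbumin, 3.55 (SE 0.06), Ebf1 3.31 (SE 0.12) and Dner 1.83 (SE 0.05).

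The 10 genes did not rise and fall together from library to library. For this, each gene's log2 level was centred on the mean of its own group, over 26 cerebellar libraries. Of the 45 pairs of genes, 24 had a correlation above 0, and the median Pearson correlation was 0.03, given as a description because all points share their libraries. Some pairs lay on the same side more often. The pairs named here were picked from all 45 by their values, so their counts are a description only. Calb1 and Car8 lay on the same side of their group means in 23 of 26 libraries, as did Slc1a6 and Homer3. Itpr1 and Rora did so in 19 of 26, as did Itpr1 and Car8, and Car8 and Ppp1r17. Pcp2 and Gng13 were among the pairs at 18. Others were on opposite sides more often: Pcp2 and Rora lay on the same side in 7 of 26 libraries. So did Rora and Homer3, and Car8 and Homer3. The SD of these deviations ran from 0.06 for Calb1 to 0.12 for Rora and 0.125 for Gng13 on the log2 scale.

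The libraries also differed in how long genes stood against short ones. For each library, the median deviation of 2601 genes with at least 8000 bases of exons was compared with that of 817 genes with at most 1500. In the 12 libraries where long genes stood higher, Itpr1 was above its group mean in 11, Rora and Car8 in 10 each and Calb1 in 9, and Pcp2 was below its mean in 10 and Homer3 in 9. In the other 14 libraries, Itpr1 and Rora were each below their means in 12, and Car8 and Calb1 in 8 each. Itpr1 (18319 bases) and Rora (13071 bases) have the longest exon sequence of the 10 genes. Over the 26 libraries, deviations were also correlated with the value of long over short genes. The Pearson correlation was 0.756 for Itpr1, 0.79 for Rora, 0.308 for Calb1 and 0.328 for Car8 (3853 bases). It was below 0 for the shorter genes, at -0.695 for Homer3 (3440 bases), -0.743 for Pcp2 and -0.472 for Gng13. Pcp4 stood at -0.323, Slc1a6 at -0.256 and Ppp1r17 at -0.167. The sign thus went with exon length, but the size did not follow it throughout. WT replicate 1 of experiment 1A had the highest value of long over short genes, 0.14 on the log2 scale, with Rora at 0.21 and Itpr1 at 0.13 above their means and Pcp2 at -0.20. Mir7DKO replicate 1 of experiment 1B followed at 0.10, with Rora at 0.32 and Itpr1 at 0.21. The part of this difference between libraries in the changes of Rora, Itpr1 and Pcp2 was not tested. The count of 0 called genes was the same in each cerebellar comparison without either library. As it was 0 with every library in, it cannot measure that part.

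**Figure D4:**
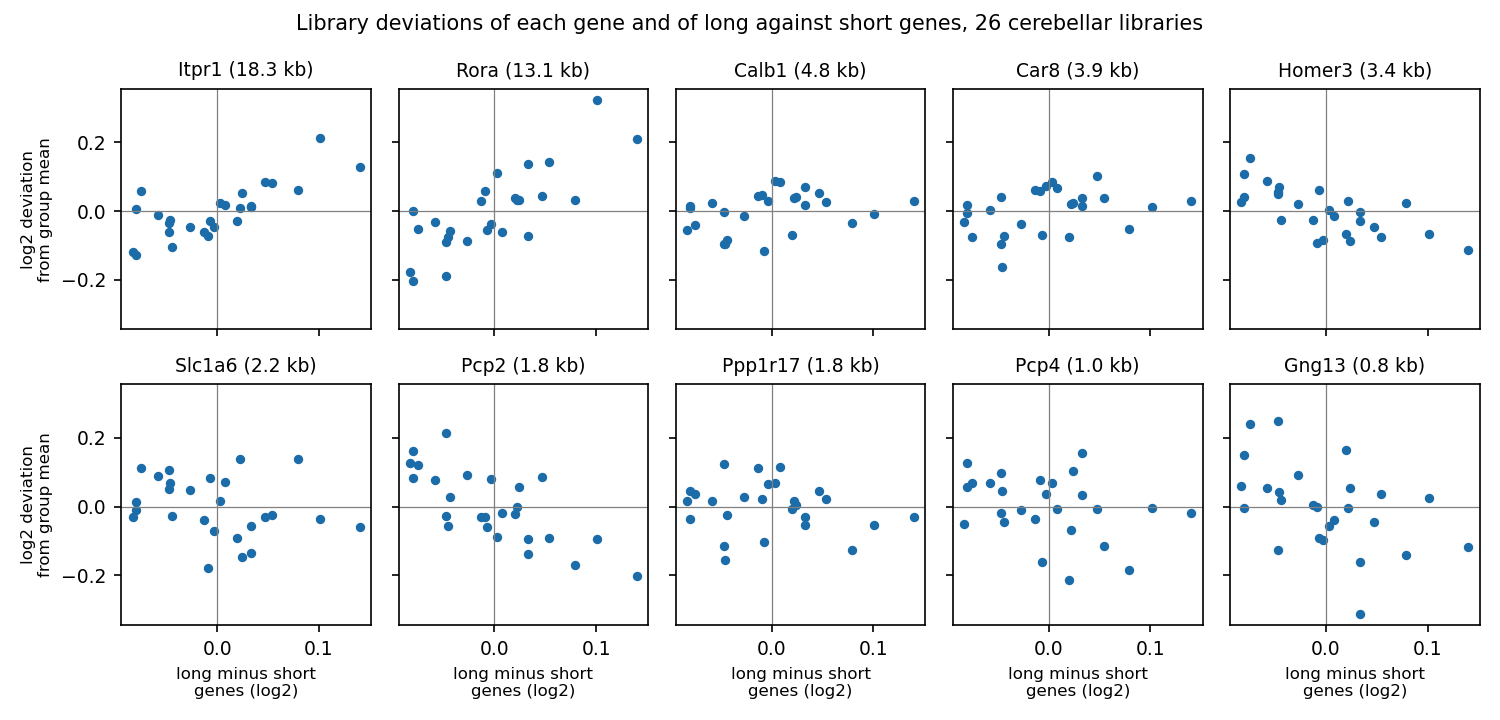
Deviation of each gene from its group mean (log2) against the difference between long and short genes in the same library (log2), 1 point for each of 26 cerebellar libraries, with genes ordered by exon length. Itpr1 and Rora lie higher where long genes stand higher, and Pcp2 and Homer3 lower.

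The genes whose deviations were most like the mean of the 10, among 13598 genes tested in every cerebellar comparison, were Cebpg with a Pearson correlation of 0.78, Irs1 with 0.774, Scn11a with 0.754, Cstf3 with 0.742 and Jtb with 0.725, each over 26 libraries. No gene of the 2 Purkinje lists was among these 5. The 5 were picked as the highest of 13598 correlations, so their size is not evidence that they vary with the 10 genes.

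Markers of other cells also differed between libraries. The choroid plexus, the tissue that makes cerebrospinal fluid and lies against the cerebellum, showed this most. Its summed marker level ran from 36.5 to 364 CPM in WT and from 44.0 to 1179 CPM in CyrMut. Of 9 choroid plexus genes tested there, 8 had an unadjusted p under 0.05, against 4.98% of all genes tested. Their median log2 change was 2.20, and 0 passed the test. In experiment 2 the sum ran from 32.4 to 38.0 CPM in WT cerebellum and from 31.5 to 709.9 CPM in Mir7DKO cerebellum. There 4 of 6 choroid plexus genes tested rose, and 0.198% of all genes tested were called in either direction. In cortex the sum ran from 15.4 to 392 CPM in WT and from 14.5 to 17.7 CPM in Mir7DKO. There 1 of 4 genes tested fell, and 0.0436% of all genes tested were called in either direction. The summed level of the 10 Purkinje cell genes ran from 7909 to 8727 CPM in WT and from 8250.0 to 8837 CPM in CyrMut. In experiment 2 it ran from 8253 to 8599 CPM in WT cerebella and from 7678 to 8447 CPM in Mir7DKO cerebella. These sums are not scaled by exon length. Itpr1 alone had 3458 to 4108 CPM in the WT cerebella of experiment 1A, so the sums say little of the genes with fewer counts. The part of choroid plexus RNA in the values of the 10 genes was not tested. The count of 0 called genes held on leaving out each library in turn. It was 0 with every library in as well, so it cannot measure that part. None of 8 granule cell markers and none of 8 oligodendrocyte markers passed the test in any cerebellar mutant comparison. In Mir7DKO of experiment 1B, however, 5 of the 8 oligodendrocyte markers had an unadjusted p under 0.05, against 3.68% of all genes tested. Their median log2 change was -0.16, with sums of 7868 to 8416 CPM in WT and 6491 to 8292 CPM in Mir7DKO. In CyrMut, 5 of 5 erythrocyte markers had an unadjusted p under 0.05, against 4.98% of all genes tested. Their median log2 change was -1.17, with sums of 369.9, 446 and 1686 CPM in the 3 WT libraries and 294 to 455 CPM in CyrMut. A single WT library thus stood far above, and the other WT sums lay within the CyrMut range. Markers of 1 cell type in the same libraries are also not independent, so the count of 5 is not 5 separate results. The 3 brainstem and midbrain markers tested in CyrMut were all under 0.05 as well. Their median log2 change was 0.53, with sums of 113 to 136 CPM in WT and 141 to 154 CPM in CyrMut. None of these passed the test after adjustment, and their part in the values of the 10 genes was not tested.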

How the data were processed

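The 5 tables deposited by the authors, 1 per mutant comparison, hold whole-number counts of reads per gene and library in 38393 features, per the file headers. Beside the counts, the deposited tables hold the authors' DESeq2 results as a log2 fold change and a p-value with its adjusted form. Tools in the submitters' processing notes are DESeq2 1.10, HTSeq 0.6.1p1 and STAR 2.4, and the build is mm10, also called GRCm38. Neither the strand setting of the counting nor the annotation release is given in the sources used here. One record of the CyrMut table (Myo15) lacked a cell, which was put back. The WT libraries of experiment 1B stand in both of its tables, and 1 count differs. WT tissues were compared on the counts of the 2 tables of experiment 2.

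Groups follow the labels for genotype, tissue and experiment. The test was that of edgeR 4.0.16 (R 4.3.3) on the raw counts of the libraries of each comparison alone, with filterByExpr (minimum count 10), TMM scaling, the quasi-likelihood F-test and Benjamini-Hochberg adjustment over all genes tested at 0.05. All p-values printed are two-sided and come from this test unless said otherwise. A difference of changes was tested with 1 mean per group over the 4 groups involved. Dividing a log2 change by the root of F gave its standard error, and the 95% interval uses the t quantile of that fit. Levels are CPM with TMM scaling. Precision is set by the variation between libraries, at 8.98% for CyrKO, 9.02% for CyrMut, 9.79% and 6.14% for Mir7DKO cerebellum of experiments 1B and 2, 5.56% for cortex and 5.13% between WT tissues (biological coefficient of variation). Deviations from group means were taken on log2(CPM + 1). Counting intervals are exact and cover counting error only. The submitters describe the replicates as biological.

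DESeq2 1.42.0, size factors of the DESeq2 kind, no filter on low counts, the replicate number as a block and leaving out each library were the alternatives. The steps were tested on simulated data. The members and the lists were chosen with earlier results of these data known. The genes named are all 10 members, up to 6 members of each of the 2 other Purkinje lists by smallest p among those past the test (or 2 where none passed), and the 5 genes most like the mean of the 10. The results of some genes under this rule are not reported here.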

Additional observations from a re-analysis of the deposited data

Results flagged for a closer look

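Of 60 sets of 4 libraries of 1 gene in 1 group, 2 held a library that lay far from the other 3 by Dixon's test at the 95% level. Chance flags about 1 in 20 such sets. Pcp4 in CyrKO replicate 1 was at 119.07 CPM, and the other 3 CyrKO libraries were at 139.0 to 142.7 CPM. Ppp1r17 in Mir7DKO replicate 3 of experiment 1B was at 263.64 CPM, and the other 3 Mir7DKO libraries were at 234.5 to 239.2 CPM.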

How the results depend on the processing

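The count of Purkinje cell genes past the test was 0 in each mutant comparison and in both differences of changes under every alternative run, and the smallest adjusted p reached was 0.168, for Gng13 in CyrMut without WT replicate 1. Of 1028 values of the genes under alternatives, 57 changed sign, 54 of them on leaving out a library, and none of these passed the test in any setting; the largest had a size of 0.093 before the change on the log2 scale. Pcp4 between WT tissues passed the test in 3 settings, given in the report. The counts over all genes, which set the background, moved more, and the cause was not tested. With DESeq2 they were 4 in CyrMut (1 by edgeR), 3 in Mir7DKO of experiment 1B (1) and 12 for the difference between tissues (23). With no filter on low counts they were 10 in CyrKO (3), 43 in CyrMut, 48 in cortex (6), 4 and 184 in the Mir7DKO cerebella of experiments 1B (1) and 2 (28), 74 for the difference between tissues and 19 for that between experiments (0). Leaving out 1 library gave 3 to 10 in CyrKO (10 without WT replicate 4), 1 to 17 in CyrMut (17 without CyrMut replicate 2), 0 to 2 in Mir7DKO of experiment 1B, and 3 to 70 in cerebellum of experiment 2 (3 without WT replicate 1 or 2, 6 without WT replicate 4, 67 and 70 without Mir7DKO replicates 2 and 3). It gave 4 to 11 in cortex (11 without WT replicate 1), 1 to 48 for the difference between tissues and 0 to 1 for that between experiments.

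The replicate numbers are shared between groups, but same-numbered libraries did not deviate together throughout: over 21 pairs the correlation of their deviations ran from -0.314 to 0.435, and no comparison had all of its pairs above 0.1. In cortex the 3 pairs were at 0.075 to 0.149, and each of the 3 was the best match. With the replicate block the counts over all genes were 2 in Mir7DKO of experiment 1B and 19 in cortex, and the count of Purkinje cell genes past the test was the same in each comparison where the block was fitted. The alternatives for the differences of changes that leave out a library or use a block were chosen after seeing the data. Low counts limit what can be said of Pcp2 and Ppp1r17 in cortex, with 5 and 11 counts over 4 WT libraries.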
